A study of Homo sapiens with 24 samples.

Results

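The 5 NF-kB subunit genes (NFKB1, NFKB2, REL, RELA and RELB) and 5 genes of the pathway's feedback loops (NFKBIA, NFKBIE, TNFAIP3, BCL3 and BIRC3) were followed in 4 cell lines of diffuse large B-cell lymphoma (DLBCL), at rest and after silencing of the transcription factor FOXP1. The members were chosen by name, as every probe that the array annotation assigns to one of these 10 genes. They comprised 11 probes of 41000 on the array and 10 of the 30142 named genes, and all 10 were well above background in both colours on at least 12 of the 24 arrays, as were 17169 genes in all. DB and K422 are established lines of the germinal center B-cell-like subtype (GCB-DLBCL), and HBL-1 and OCI-Ly3 of the activated B-cell-like subtype (ABC-DLBCL). Each line was electroporated with siFOXP1 #1 (HSS178308), siFOXP1 #2 (HSS178309) or a non-targeting low-GC control duplex (siCtrl) and harvested after 48 h, in 3 replicates. Every sample was a 2-colour array on which the siFOXP1 RNA carried Cy3 and the siCtrl RNA carried Cy5, with no dye swap, so a dye effect of a probe cannot be told apart from silencing within a line. Each subtype was represented by only 2 lines, so differences between subtypes are differences between these 4 lines. The arrays of DB and OCI-Ly3 were processed with 1 version of the feature extraction software and those of K422 and HBL-1 with another. Each version therefore holds 1 line of each subtype. Below, a scan means only the lines that share a software version, and it does not stand for a known scanning batch.

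NF-kB transcription factors are dimers of the proteins encoded by the 5 subunit genes. In the canonical route, IkB kinase removes inhibitors such as IkB-alpha (NFKBIA) and IkB-epsilon (NFKBIE) and frees dimers that contain RELA or c-Rel. In the non-canonical route, the NFKB2 precursor is processed and pairs with RELB. NF-kB in turn transcribes several of its own subunits and inhibitors, and TNFAIP3 (the ubiquitin-editing enzyme also called A20), BCL3 (an IkB-like nuclear cofactor of NFKB1 and NFKB2 homodimers) and BIRC3 (the ubiquitin ligase cIAP2) are well known among its targets. Constitutive NF-kB activity is a textbook feature of ABC-DLBCL.

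The lines carried the markers of their labels. The B-cell markers MS4A1, CD79A, CD79B, PAX5 and CD22 were well above background in the siCtrl channel on all 6 arrays of each line. All 7 GCB markers were so in both GCB lines and 4 of 7 in both ABC lines, while all 7 ABC markers were so in both ABC lines, against 4 in DB and 3 in K422. Of 5 T-cell markers, CD3D (level 2.29) and CD3G (level 3.34) were well above background on all 6 arrays of K422 and on none of another line, and CD3E was on all 6 arrays of every line but DB, at levels of -3.42 or below. Of 4 myeloid markers on the array, between 1 and 3 were on all arrays of a line. Every member but NFKBIA also had its lowest mean siCtrl level in K422, and the part of these markers in that was not tested. In cultures measured in bulk, fewer cells with a transcript and less transcript per cell cannot be told apart. FOXP1 transcript itself, the silenced gene, was lower on all 24 arrays. Its log2 ratio of siFOXP1 over siCtrl was -1.96 in OCI-Ly3, -1.998 in DB, -1.74 in HBL-1 and -1.34 in K422, and the ratio with siFOXP1 #2 minus that with siFOXP1 #1 was -1.03 over the 4 lines (limma adjusted p = 9.475e-07).

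The probe sequences are shown for NFKB2, the only member whose response was called, for REL, the only member called lower in an ABC line than in the GCB line of the same scan at rest, and for the second probe of TNFAIP3, whose values departed from those of the first. They are read 5′ to 3′ from the array annotation, with hg18 positions. The NFKB2 probe lies on the plus strand at chr10:104151043-104151219, so its 60 bases are spread over 177 genomic bases and cross an exon junction. The REL probe is at chr2:61003100-61003159 and the second TNFAIP3 probe at chr6:138243003-138243062, both on the plus strand. Whether these positions are coding or untranslated was not looked up, as no hg18 gene models were used here.
NFKB2: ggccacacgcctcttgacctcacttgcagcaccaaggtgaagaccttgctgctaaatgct
REL: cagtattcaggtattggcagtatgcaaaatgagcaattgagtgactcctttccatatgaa
TNFAIP3: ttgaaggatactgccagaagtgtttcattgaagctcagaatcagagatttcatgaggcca

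Promoter sequences are shown for NFKBIA, TNFAIP3 and BIRC3, the feedback genes whose promoter held a match to the NF-kB binding consensus. The promoter of BCL3, which held none, and those of the subunits are not printed. RefSeq promoters (GRCh38.p14) were matched by symbol for 8 members, all but RELB and NFKBIE, with 12 promoters in all, and the 250 bases before each start were searched on both strands. A match to the kappaB consensus was found in 7 of the 12, in NFKB1, NFKB2, REL, NFKBIA, TNFAIP3 and BIRC3, against 5.21% of 35116 promoters of the same length. The forkhead core TGTTTAC was found in none of the 12 and in 2.98% of all promoters. Such a match is only a stretch of letters, and its absence says nothing of FOXP1 binding. Capitals mark the kappaB matches, each of which reads on the strand opposite to the one printed. They lay 81 bases before the start in NFKBIA (gene on the minus strand, chr14:35404750-35404999), 67 and 55 in TNFAIP3 (gene on the plus strand, chr6:137867009-137867258), and 199 and 135 in BIRC3 (gene on the plus strand, chr11:102317234-102317483).
NFKBIA: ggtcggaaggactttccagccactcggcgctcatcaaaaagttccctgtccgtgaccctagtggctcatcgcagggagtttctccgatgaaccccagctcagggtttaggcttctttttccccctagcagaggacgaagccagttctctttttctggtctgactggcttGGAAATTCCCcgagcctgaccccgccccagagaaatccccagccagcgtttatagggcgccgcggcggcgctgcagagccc
TNFAIP3: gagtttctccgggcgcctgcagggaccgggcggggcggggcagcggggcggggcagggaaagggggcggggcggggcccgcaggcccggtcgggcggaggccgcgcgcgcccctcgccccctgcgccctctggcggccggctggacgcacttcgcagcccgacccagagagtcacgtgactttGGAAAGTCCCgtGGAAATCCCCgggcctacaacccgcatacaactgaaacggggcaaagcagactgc
BIRC3: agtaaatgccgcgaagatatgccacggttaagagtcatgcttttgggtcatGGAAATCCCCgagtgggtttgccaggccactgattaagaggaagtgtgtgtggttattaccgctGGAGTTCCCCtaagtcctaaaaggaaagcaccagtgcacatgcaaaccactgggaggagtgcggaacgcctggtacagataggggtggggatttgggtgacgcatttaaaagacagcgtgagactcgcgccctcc

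At rest, most members were higher in the ABC-DLBCL lines. The control level of a gene is the log2 Cy5 signal of siCtrl cells minus the 75th percentile of the array, given for 3 control samples per line, and a difference was called at a limma adjusted p under 0.05 and at least 0.5 on the log2 scale. Between the mean of HBL-1 and OCI-Ly3 and the mean of DB and K422, 8 of 10 members were called, all of them higher in the ABC lines (BCL3, BIRC3, NFKB1, NFKB2, NFKBIA, NFKBIE, RELB and TNFAIP3). So many genes differ between lines of this kind that 37.4% of all genes tested were called in the same comparison. The median difference of the members was 2.77 on the log2 scale, where that of all genes was -0.016. Their median was 2.18 between OCI-Ly3 and DB (all genes 0.034) and 4.05 between HBL-1 and K422 (all genes -0.041). Within a scan, the background was 38.2% between OCI-Ly3 and DB, where 7 members were called higher and REL lower, and 39.1% between HBL-1 and K422, where every member but RELA was called higher. For 7 members (NFKB1, NFKB2, NFKBIA, NFKBIE, TNFAIP3, BCL3 and BIRC3) all 6 control samples of the ABC lines lay above all 6 of the GCB lines.

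**Figure D1:**
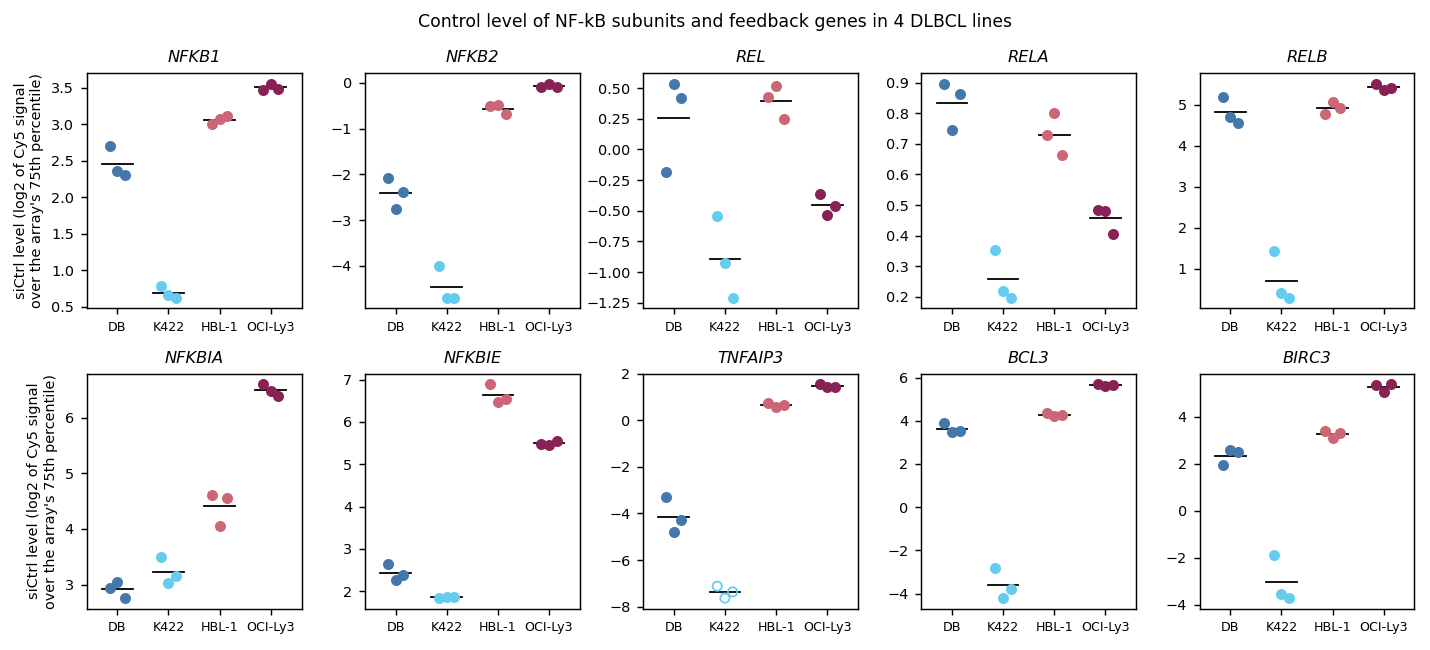
Control level of each member in the 4 lines, as the log2 Cy5 signal over the 75th percentile of the array (y axis, own scale per gene). Points are the 3 control samples of a line and bars their mean, and open points mark TNFAIP3 in K422, which was not well above background. RELB, BCL3 and BIRC3 lie far lower in K422 than in the other lines, with mean levels of 0.72, -3.60 and -3.04.

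Among the subunits, NFKB2, the precursor of p52, had the largest difference between the subtypes in the signals as deposited. Its control level was -0.084, -0.025 and -0.084 in OCI-Ly3, -0.51, -0.50 and -0.69 in HBL-1, then -2.09, -2.76 and -2.38 in DB, with K422 at -4.01, -4.70 and -4.69. The 2 ABC lines were not separated (0.50 apart, adjusted p = 0.071), and both stood above DB, which stood above K422. The ABC minus GCB difference was 3.12 ± 0.15 (SE), or 8.71-fold, with an adjusted p of 1.207e-08, and it was smaller, at 1.89, and below that of RELB, at 2.44, when the background was corrected with normexp and an offset of 50. NFKB1, the precursor of p50, followed the same order, at a mean level of 3.50 in OCI-Ly3, 3.06 in HBL-1, 2.46 in DB but 0.69 in K422, and differed 3.27-fold between subtypes. Between lines that do not share a software version, line and version cannot be told apart. In such pairs the median of all genes shifted by between -0.23 and 0.25.

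RELB, the partner of p52, was high in 3 lines and low in K422. Its level was 5.51, 5.36 and 5.40 in OCI-Ly3, 4.78, 5.07 and 4.92 in HBL-1, then 5.18, 4.71 and 4.55 in DB, with K422 at 1.44, 0.41 and 0.30. DB overlapped HBL-1, and OCI-Ly3, HBL-1 and DB were not separated from their neighbours in this order (adjusted p = 0.15 and 0.75). Accordingly the difference was 18.4-fold between HBL-1 and K422 and 1.53-fold between OCI-Ly3 and DB, and the latter was not called (adjusted p = 0.11), although it was without K422 replicate 1 (adjusted p = 0.012). RELA and REL, which encode the transactivating subunits p65 and c-Rel, did not follow the subtypes. RELA differed by 0.048 between subtypes (95% interval -0.11 to 0.21), and its order was DB (0.83), HBL-1 (0.73), OCI-Ly3 (0.46) and K422 (0.26). Between HBL-1 and K422 it differed by 0.47 (adjusted p = 2.997e-03), just below the size limit, and it passed that limit without K422 replicate 1 (0.52) or HBL-1 replicate 3 (0.51) and with quantile normalization (0.50). REL had means of 0.40 in HBL-1, 0.26 in DB, -0.45 in OCI-Ly3 and -0.89 in K422. It was called lower in OCI-Ly3 than in DB, by -0.71 (adjusted p = 0.018), and higher in HBL-1 than in K422, by 1.29 (adjusted p = 4.042e-04). The call against DB was lost without DB replicate 2 (-0.57, adjusted p = 0.073), DB replicate 3 (-0.63, 0.066) or OCI-Ly3 replicate 2 (-0.67, 0.057), and with normexp background correction (-0.65, 0.12).

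Among the inhibitors, NFKBIA and NFKBIE were higher in both ABC lines. NFKBIA, which encodes IkB-alpha, was 6.60, 6.49 and 6.39 in OCI-Ly3, 4.62, 4.05 and 4.56 in HBL-1, then 3.49, 3.02 and 3.15 in K422, and 2.93, 3.04 and 2.76 in DB. DB and K422 were not separated (adjusted p = 0.17), and OCI-Ly3 was above HBL-1 by 2.08. NFKBIE was instead highest in HBL-1, at 6.89, 6.47 and 6.53, against 5.48, 5.45 and 5.55 in OCI-Ly3, then 2.65, 2.27 and 2.38 in DB, and 1.84, 1.86 and 1.87 in K422. All 4 lines were separated for NFKBIE, which was 15.1-fold higher in the ABC lines. In the first replicate of HBL-1 its level came from 1 array, because the spot on the other was an outlier.

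TNFAIP3, in the signals as deposited, had the largest difference between the subtypes of all 10 members. Its level was 1.55, 1.43 and 1.43 in OCI-Ly3, 0.75, 0.55 and 0.65 in HBL-1, with DB at -3.29, -4.81 and -4.30. No K422 array had it well above background, and in DB 5 of 6 did. Relative to the dimmest signal counted as above background, the brighter probe of TNFAIP3 was at least 57.9-fold higher in the ABC than in the GCB lines (limma adjusted p of the measured difference 4.037e-10) and at least 69.2-fold higher in HBL-1 than in K422. Between OCI-Ly3 and DB it was 48.5-fold higher. These sizes depend on how background is treated, since with normexp and an offset of 50 the difference between the subtypes was 3.65 on the log2 scale (adjusted p = 5.561e-06), in place of 6.81 as measured, and lay below those of BCL3 (4.39), BIRC3 (4.13) and NFKBIE (3.95).

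BCL3 and BIRC3 set K422 apart from the rest. BCL3 was 5.69, 5.60 and 5.68 in OCI-Ly3, 4.36, 4.22 and 4.27 in HBL-1, then 3.90, 3.50 and 3.51 in DB, with K422 at -2.82, -4.21 and -3.79. BIRC3 was 5.37, 5.08 and 5.39 in OCI-Ly3, 3.39, 3.09 and 3.33 in HBL-1, then 1.96, 2.57 and 2.52 in DB, with K422 at -1.87, -3.53 and -3.72. They differed 31.0-fold (adjusted p = 3.053e-09) and 24.6-fold (adjusted p = 1.052e-07) between the subtypes. For both genes the step from K422 to DB exceeded that from DB to HBL-1, which was not separated (adjusted p = 0.075 for each).

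**Figure D2:**
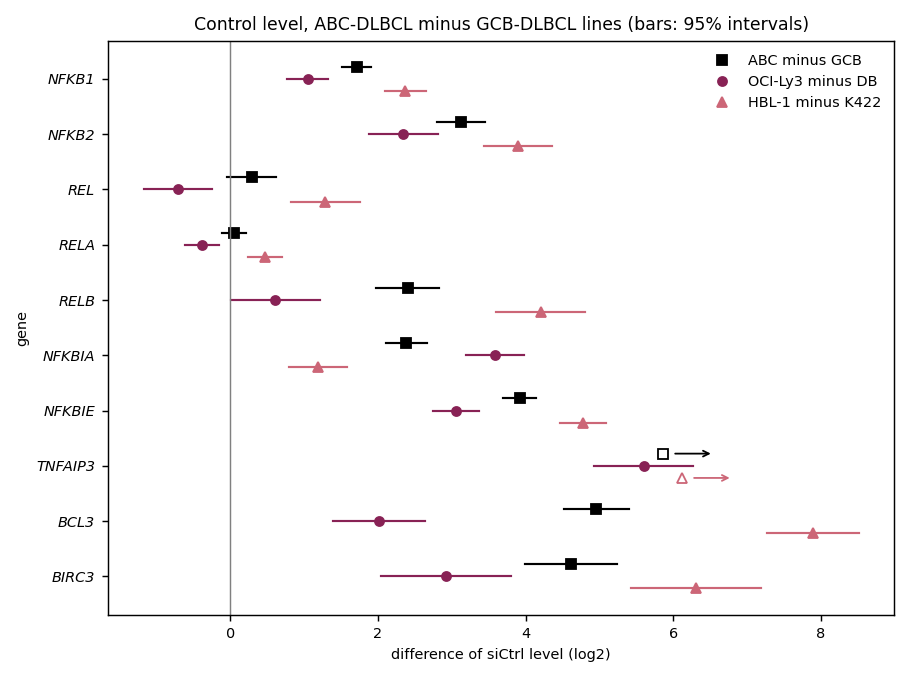
Difference of the control level (log2, x axis) between ABC and GCB lines for each member, over all lines and within each scan, with 95% intervals. Open symbols with arrows are lower bounds for TNFAIP3, which was not well above background in K422. REL and RELA sit near 0 over all lines, and the other 8 members lie at 1.71 or above.

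Other genes of the pathway were compared at rest in the same way, where 37.4% of all genes were called. Of 30 NF-kB target genes, 27 were called higher in the ABC lines and CCL4, a chemokine, was called lower by -4.31. IRF4, CCND2 and PIM1 on this list are also among the ABC markers used above, so their calls are not independent of those markers. Within scans, 26 were called higher and 1 lower between OCI-Ly3 and DB, where 38.2% of all genes were called. Between HBL-1 and K422 (39.1%), 21 were higher and 6 lower (CCL4, FAS, LTA, LTB, PLEK and TNF). With 13 of the 30 below background in at least one line, the median of the list between the subtypes was 3.00 with those genes at their bound, and 3.99 as measured. CD44, an adhesion receptor, CCND2, a D-type cyclin, and IRF4, a plasma-cell and ABC-DLBCL factor, differed between the subtypes by at least 1742-fold, 616.1-fold and 359.5-fold. These bounds hold only for the signals as deposited. For TNFAIP3 the difference with normexp lay below its own bound of this kind. Of the 5 other genes with IkB names, NFKBID (26.9-fold), NFKBIZ (25.0-fold) and NFKBIL2 were higher and NFKBIL1 lower. Of 12 genes listed as kinases or their partners, MAP3K14, which encodes the NF-kB-inducing kinase of the non-canonical route, was 3.35-fold higher. MAP3K8 was also higher, and IKBKE, MAP3K7IP3 and RIPK1 were lower. In this kinase list, only MAP3K14 was called higher and only MAP3K7IP3 lower within both scans. Of the 19 ubiquitin regulators and adaptors 7 were higher and 4 lower, and the adaptor TRAF5 differed most, by 19.9-fold. Within scans, 10 were higher and 3 lower between OCI-Ly3 and DB, and 2 higher and 7 lower between HBL-1 and K422. TRAF5 was called in the former only. TNIP3 and OTUD7B, among the 7 higher between the subtypes, were well above background in Cy5 on no array of DB, K422 or HBL-1.

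After FOXP1 silencing, the share of members called was near that of all genes. The response is the log2 ratio of siFOXP1 over siCtrl, averaged over both siRNAs in a line and called at a limma adjusted p under 0.05 and at least 0.5, or 1.41-fold. No member was called in DB (2.16% of all genes were), K422 (4.44%) or OCI-Ly3 (4.42%), and 1 of 10, NFKB2, was called in HBL-1 (9.9%). By the adjusted p alone, without the limit on size, 8 members passed in HBL-1 (31.1% of all genes did), 5 in OCI-Ly3 (18.8%), and 2 each in DB (12.1%) and K422 (19.4%). The median response of the members was -0.048, 0.15, -0.047 and 0.048 in the same order, and that of all genes was 0. In HBL-1 all 5 subunits had positive means and all 5 feedback genes negative means, although the means of NFKB1, REL and RELA turned negative with normexp and median centring.

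**Figure D3:**
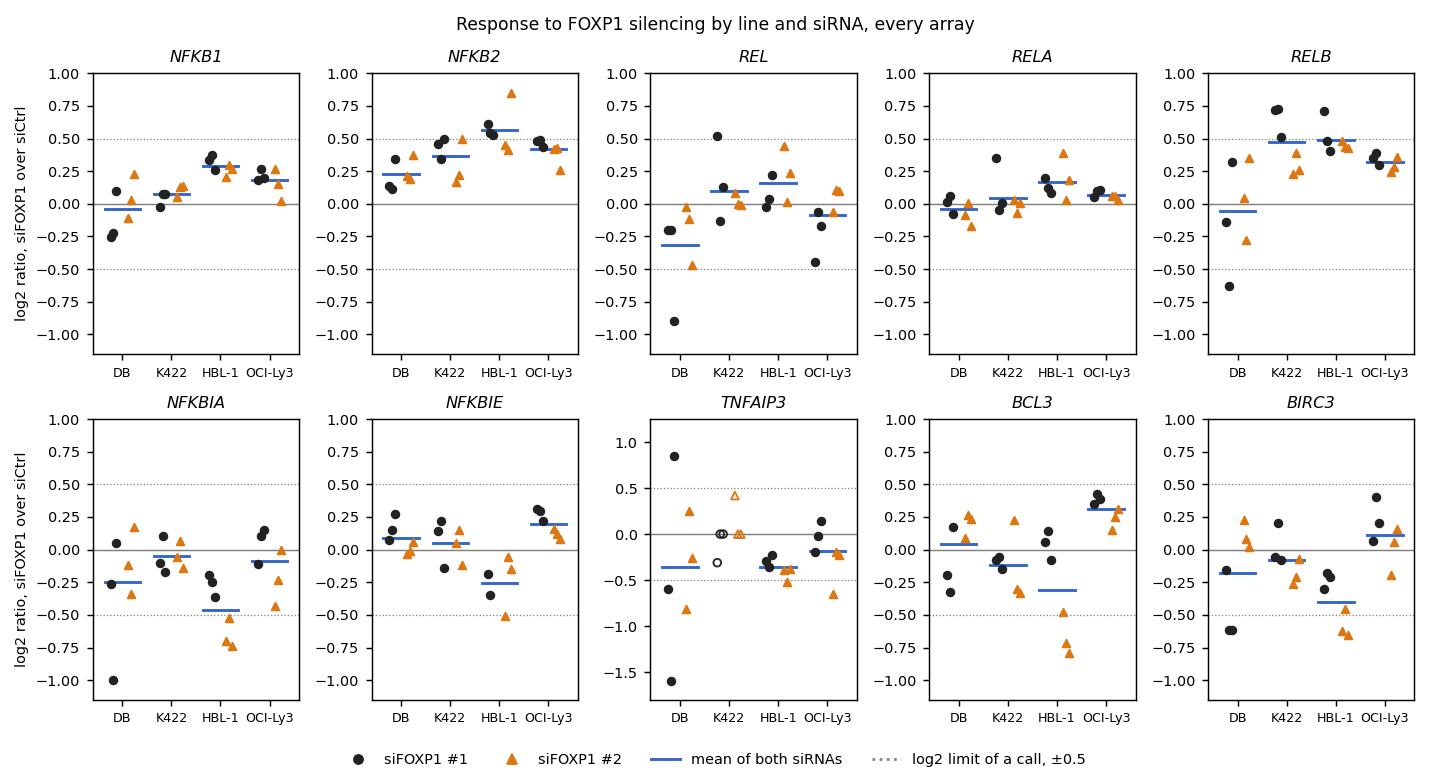
Log2 ratio of siFOXP1 over siCtrl on every array (y axis, wider for TNFAIP3) for each member in the 4 lines, with circles for siFOXP1 #1, triangles for siFOXP1 #2 and a bar for the mean of both. Dotted lines mark ±0.5, and open symbols mark TNFAIP3 in K422, not well above background in either colour. NFKB2 lies above 0 on all 24 arrays.

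NFKB2 was higher in siFOXP1 cells on all 24 arrays. Its log2 ratio lay between 0.41 and 0.85 in HBL-1 (median 0.54), between 0.26 and 0.49 in OCI-Ly3 (median 0.43), between 0.16 and 0.50 in K422 (median 0.40) and between 0.11 and 0.37 in DB (median 0.20). The highest DB value did not reach the lowest HBL-1 value. The mean was 0.57 ± 0.15 (SD, n = 6 arrays) in HBL-1, 0.42 ± 0.084 in OCI-Ly3, 0.36 ± 0.14 in K422 and 0.23 ± 0.11 in DB. The limma adjusted p was 3.985e-07, 2.983e-05, 1.175e-04 and 9.327e-03 in the same order, and only HBL-1, at 1.48-fold, passed the limit on size. The call in HBL-1 was lost when the arrays were corrected with normexp and median-centred (0.26, adjusted p = 0.051) or with normexp and loess (0.44, adjusted p = 8.391e-07). The same corrections brought NFKB2 to 0.10 (adjusted p = 0.54) and 0.081 (0.35) in K422 and to 0.094 (0.92) and 0.12 (0.19) in DB, while OCI-Ly3 kept 0.36 (0.034) and 0.39 (1.074e-05). One direction on every array of an unswapped design is also what a dye effect of this probe would give, and the 2 cannot be told apart.

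RELB, which pairs with the NFKB2 product, lay above 0 on all arrays of 3 lines. Its log2 ratio ran from 0.40 to 0.71 in HBL-1, from 0.23 to 0.73 in K422 and from 0.25 to 0.39 in OCI-Ly3, with means of 0.49 ± 0.11 (SD), 0.47 ± 0.22 and 0.32 ± 0.053. These means passed the adjusted p (2.618e-04, 8.290e-04 and 0.014) and stayed below the size limit. With the slide as a block RELB no longer passed in OCI-Ly3 (0.28, adjusted p = 0.073), nor did it there without any one of the OCI-Ly3 replicates (adjusted p between 0.068 and 0.090), and with normexp and median centring it was 0.33 in K422 and 0.12 in OCI-Ly3 (adjusted p = 0.15 and 0.79). In HBL-1 the value of RELB passed that limit with the slide as a block (0.51), with normexp and loess (0.50), and without HBL-1 replicate 2 (0.51) or 3 (0.53), and in K422 without K422 replicate 3 (0.52), but with normexp and median centring it was 0.094 in HBL-1. In DB the arrays were split, between -0.63 and 0.35, around a mean of -0.054. NFKB1 was above 0 on all arrays of HBL-1 (mean 0.29 ± 0.060, adjusted p = 8.451e-05) and OCI-Ly3 (0.18 ± 0.091, adjusted p = 9.435e-03), and its arrays straddled 0 in DB and K422. Over 26 settings of the fit and processing, the OCI-Ly3 value of NFKB1 fell as low as 0.051, and its adjusted p rose as high as 0.94. RELA passed the adjusted p in HBL-1 only, at 0.17 ± 0.13. REL passed it in DB, at -0.32 ± 0.32, where the ratio was -0.20, -0.20 and -0.90 with siFOXP1 #1 and -0.024, -0.12 and -0.47 with siFOXP1 #2. Without DB replicate 3, which was lowest with both siRNAs, the value for REL was -0.14 (adjusted p = 0.37), and with the replicate block it was -0.32 (adjusted p = 0.056). With normexp and median centring the means of NFKB1, REL and RELA in HBL-1 fell on the other side of 0, at -0.030, -0.14 and -0.081.

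Of the feedback genes, 4 lay below 0 on every usable array of HBL-1. NFKBIA was below 0 on all 6 arrays, at -0.46 ± 0.23 (SD; adjusted p = 1.184e-03), as was BIRC3, at -0.40 ± 0.21 (adjusted p = 7.673e-05). NFKBIE was below 0 on all 5 arrays with a usable spot, at -0.25 ± 0.18 (adjusted p = 4.234e-03), the array of siFOXP1 #1 replicate 1 being left out. TNFAIP3 was below 0 on all 6 as well, between -0.53 and -0.23, but did not pass (-0.36, adjusted p = 0.20). The fit takes 1 spread per gene from all 4 lines, and the SD of TNFAIP3 was 0.10 in HBL-1 but 0.85 in DB. Over 26 settings of the fit and processing, its adjusted p in HBL-1 ran from 2.518e-05 to 0.62. BCL3 was below 0 on 4 of 6 arrays, at -0.31 ± 0.40 (adjusted p = 1.660e-03). None of these means reached the size limit. With normexp and median centring, NFKBIA (-0.76), NFKBIE (-0.68), BCL3 (-0.66), BIRC3 (-0.62) and TNFAIP3 (-0.58) were all called lower and NFKB2 was not called, so that the split was 0 higher and 5 lower in place of 1 higher and 0 lower.

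BCL3 separated the siRNAs in HBL-1. With siFOXP1 #1 its mean ratio there was 0.040 ± 0.11 (SD, n = 3) and with siFOXP1 #2 it was -0.66 ± 0.16, without overlap. The gap between the siRNAs in a single line was not tested. NFKBIA (-0.27 and -0.66) and BIRC3 (-0.23 and -0.58) also had lower values with siFOXP1 #2 in HBL-1, on every array. In DB the siRNAs lay the other way round, without overlap for BIRC3 (-0.46 with siFOXP1 #1 and 0.11 with siFOXP1 #2) and with overlap for NFKBIA (-0.40 and -0.093) and BCL3 (-0.11 and 0.20). RELB in K422 was higher with siFOXP1 #1 (0.65) than with siFOXP1 #2 (0.29), again without overlap. Over all 4 lines, no member was called between the siRNAs, where 0.189% of all genes were, and none passed the adjusted p alone (1.31%). In OCI-Ly3 BCL3 lay in the opposite direction to HBL-1, above 0 on all 6 arrays, at 0.31 ± 0.10 (adjusted p = 3.325e-03), as did NFKBIE, at 0.20 ± 0.094 (adjusted p = 0.019). Over 26 settings of the fit and processing, these OCI-Ly3 values fell as low as 0.059 for BCL3 and 0.0097 for NFKBIE. Their adjusted p rose as high as 0.93 and 0.99. The other feedback genes did not pass in OCI-Ly3, and none passed in DB or K422.

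**Figure D4:**
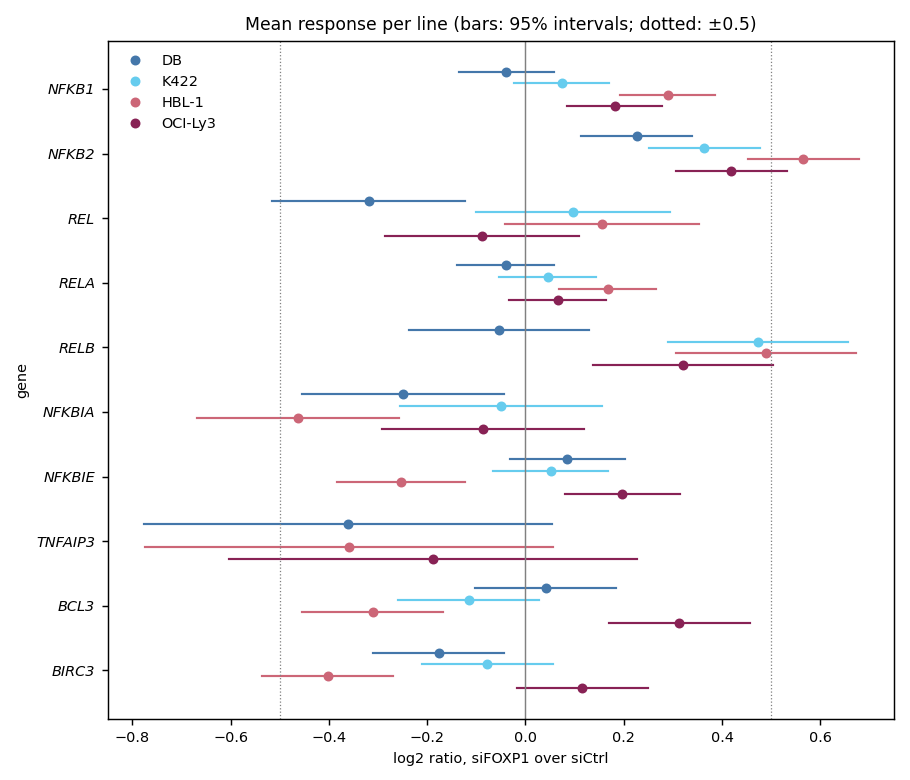
Mean log2 ratio of siFOXP1 over siCtrl per line (x axis) with 95% intervals for each member, and dotted lines at ±0.5. TNFAIP3 in K422 is left out, as it was not well above background in either colour. NFKB2 is above 0 in every line, and BCL3 is below 0 in HBL-1, at -0.31, and above 0 in OCI-Ly3, at 0.31.

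TNFAIP3 could be read in 3 lines only. In DB it was well above background on 5 of 6 arrays in Cy5 and 4 of 6 in Cy3, and its ratio ran from -1.60 to 0.85. In K422 neither colour was well above background on any array, and its ratio is not given. In OCI-Ly3 its mean was -0.19 ± 0.26. The second probe of TNFAIP3 went the other way in OCI-Ly3, at 0.22 ± 0.23, the same way in HBL-1, at -0.27 ± 0.29, and was well above background on no DB array in either colour and on 1 K422 array in Cy3 alone. In the fit that takes 1 spread per gene from all lines, no value of either probe passed the adjusted p in a line.

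Between the responses of the ABC and GCB lines, the share of members called was near that of all genes. No member was called between the subtypes, where 2.26% of all genes were, and 2 of 10 passed the adjusted p alone (8.3% of all genes). These were NFKB1, with a difference of 0.22 ± 0.046 (SE; adjusted p = 5.774e-03), and NFKB2, with 0.20 ± 0.053 (adjusted p = 0.029). A dye effect common to all lines is removed by this difference. Within scans, no member was called between OCI-Ly3 and DB (1.42% of all genes) or between HBL-1 and K422 (4.34%). None passed the adjusted p alone in the former (2.83%), although all 10 values were above 0, and 3 did in the latter (9.92%), NFKB1 at 0.22, NFKBIE at -0.30 and BIRC3 at -0.32. With the replicate block, which joins arrays taken to share a control, NFKB2 between the subtypes no longer passed (limma adjusted p = 0.065). Between HBL-1 and K422, NFKB1 (0.070) and BIRC3 (0.053) no longer passed with that block, and NFKBIE did (0.036).

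Within a line and siRNA, RELB and NFKBIA were the most alike of all pairs of members. With the means of line and siRNA left in, their Pearson correlation was 0.41, and that of NFKB1 and NFKB2 was the highest, at 0.74. After the mean of each line and siRNA was taken away, the deviations of RELB and NFKBIA had a Pearson correlation of 0.879 over 24 arrays, the highest of the 45 pairs, of which 20 were negative, and those of NFKB1 and REL had the lowest, at -0.76. The correlation of RELB and NFKBIA was 0.971 over the 6 arrays of DB, and 0.526 over the 18 arrays of the other lines. In DB both genes were lowest in replicate 2 (RELB -0.63 and -0.28, NFKBIA -1.001 and -0.34 with siFOXP1 #1 and #2) and highest in replicate 3 (RELB 0.32 and 0.35, NFKBIA 0.050 and 0.18). The 2 arrays of a replicate share, by their labels, the control sample in Cy5, so these points are not independent.

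**Figure D5:**
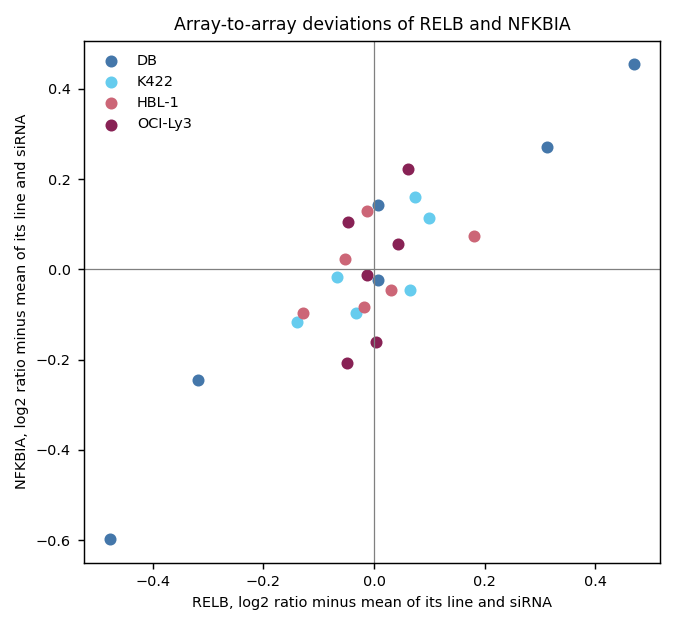
Deviation of the log2 ratio from the mean of its line and siRNA for RELB (x axis) and NFKBIA (y axis), 1 point per array and a colour per line. The 6 arrays of DB are the widest spread and carry much of the correlation of 0.879, which was 0.526 without them.

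The genes most like NFKB2 in their response across the 24 arrays were LTBP4 (Pearson r = 0.861), GTPBP2 (0.844), ZNF580 (0.842), RHOG (0.839) and ILK (0.833), out of 15312 genes compared. ILK, the integrin-linked kinase, had mean ratios of 0.90 in HBL-1, 0.72 in OCI-Ly3, 0.51 in K422 and 0.24 in DB, and LTBP4, a TGF-beta binding protein, had 0.49, 0.22, 0.11 and 0.070 in the same order. Unlike for RELB and NFKBIA, the mean of each line and siRNA was not taken away, so differences between lines enter these correlations. All of these genes, like NFKB2, had their highest mean in HBL-1. The points share lines, arrays, dyes and control samples, so they are not independent.

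Of the other genes of the pathway, those named here for their response were chosen after their values were seen. The shares of all genes called were those given above (9.9% for HBL-1, 4.42% for OCI-Ly3). NFKBID, a nuclear IkB protein, rose in HBL-1 (0.71 ± 0.16, SD, limma adjusted p = 4.463e-05) and also in OCI-Ly3 (0.56 ± 0.17, adjusted p = 1.076e-03). Of the 5 genes with IkB names it was the only 1 called in either line. Of the 12 genes of the kinase list, IKBKG, the regulatory subunit of IkB kinase, rose by 0.50 in HBL-1. CHUK, a catalytic subunit, fell there by 0.58. MAP3K8 was called higher in the response of the ABC lines than in that of the GCB lines (0.58). Of 19 ubiquitin regulators and adaptors, RBCK1 rose in HBL-1 (0.56) and TNIP2 in OCI-Ly3 (0.59). In none of these 3 lists was a gene called in DB or K422. By the adjusted p alone, 10 of the 12 genes of the kinase list passed in HBL-1, where 31.1% of all genes did. So did 10 of the 19 ubiquitin regulators and adaptors. In OCI-Ly3, where 18.8% of all genes passed, the counts were 8 and 7.

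The NF-kB target genes responded in both directions. Of 30, 3 rose and 2 fell in OCI-Ly3 (4.42% of all genes were called), 4 rose and 4 fell in HBL-1 (9.9%), 3 rose and 4 fell in K422 (4.44%), while in DB (2.16%) 0 rose and 4 fell (CCL3, CD44, EBI3 and IER3). LTB, the membrane anchor of lymphotoxin, fell in K422 (-0.55, adjusted p = 6.254e-04) and rose in HBL-1 (1.66, adjusted p = 1.738e-09) and OCI-Ly3 (0.84, adjusted p = 1.240e-05). The cytokine gene IL6 rose in both ABC lines (0.61 and 0.77), where the cyclin gene CCND2 fell (-0.99 and -0.60). Between the subtypes, CD44, EBI3, IL6 and LTB were called higher in the response of the ABC lines and IL10 lower, and the largest difference was that of LTB, at 1.61 (adjusted p = 2.030e-08). Several of these genes were dim in the GCB lines, and the calls of EBI3, CD44 and RGS1 in K422 rest on 0, 1 and 2 of 6 arrays well above background. IL6 was well above background on no array of either GCB line, and IL10 on none of DB. The median of the 30 responses was 0.066 in OCI-Ly3, -0.062 in HBL-1, -0.084 in K422 and -0.040 in DB.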

How the data were processed

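RNA of siFOXP1 cells (Cy3) and siCtrl cells (Cy5) was hybridised by the authors to 24 Agilent arrays. The deposited scanner files hold intensity values, background-subtracted and dye-normalized by Agilent Feature Extraction (10.5.1.1 or 10.7.3.1, per the file headers), and their log10 ratio of Cy5 over Cy3. This was turned to log2 of siFOXP1 over siCtrl. The deposited series matrix holds log2 values that the authors made in GeneSpring, and it served as an alternative. Controls and spots marked as outliers were dropped, repeat spots averaged, and the brightest probe taken per gene. limma 3.58.1 (R 4.3.3) was fitted to the 8 group means (4 lines by 2 siRNAs) over 24 arrays, and p-values were adjusted by the Benjamini-Hochberg method over all genes. For the control level, log2 Cy5 signals were scaled to the 75th percentile, and the 2 arrays that share a control replicate by their labels were averaged, giving 12 control samples. Arrays of a line with the same number were therefore taken to share a control, which rests on the labels alone. Their deviations correlated at between 0.047 and 0.28 over all genes. The labels call the 3 replicates biological. The number of arrays limits the precision. The text names all members with every probe. From each other list it names genes called in a line or between the subtypes, at most 6 by size of the change, with any gene behind a count of 5 or fewer named after its values were seen, and it names the 5 genes most like the member with the largest response. The members and lists were chosen with earlier results of these data known. The fits were tested on simulated data. Figures were drawn with Python 3 and matplotlib.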

Additional observations from a re-analysis of the deposited data

Results flagged for a closer look

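In each group of 6 arrays of a line (5 for NFKBIE in HBL-1), the lowest or highest value was set against the rest, and 3 of 40 groups held a value apart from the others. Chance alone flags about 1 in 20 such groups. NFKB2 in OCI-Ly3 was 0.26 with siFOXP1 #2 replicate 3, against 0.42 to 0.49 on the other arrays. RELA in K422 was 0.35 with siFOXP1 #1 replicate 1, against -0.068 to 0.027. RELB in HBL-1 was 0.71 with siFOXP1 #1 replicate 1, against 0.40 to 0.48.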

How the results depend on the processing

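The count of members called in HBL-1 was 1 and became 5 with normexp and median centring, 2 with the slide as a block (NFKB2 and RELB), 2 with siFOXP1 #1 alone (NFKB2 and RELB) and 4 with siFOXP1 #2 alone (NFKB2, and BCL3, BIRC3 and NFKBIA lower). With siFOXP1 #1 alone it was 1 in K422 (RELB) and 1 between OCI-Ly3 and DB (BIRC3), in place of 0. Between HBL-1 and K422 it was 1 with normexp and median centring (TNFAIP3) and 1 with siFOXP1 #2 alone (BCL3), in place of 0. The cause of these changes was not tested. When each replicate was left out in turn the count ran from 0 to 1 in DB (TNFAIP3 was called lower, at -0.69, without DB replicate 3), from 0 to 1 in K422 (RELB, without K422 replicate 3), from 1 to 3 in HBL-1 (RELB without HBL-1 replicate 2 or 3, and NFKBIA without replicate 2) and from 0 to 1 between OCI-Ly3 and DB (RELB, without DB replicate 3). For the control level the count ran from 8 to 8 between the subtypes, from 7 to 9 between OCI-Ly3 and DB and from 9 to 10 between HBL-1 and K422. With the replicate block, which pairs arrays taken to share a control, the count in HBL-1 was 1 and no response call of a member changed. However, 4 values no longer passed the adjusted p alone (REL in DB, NFKB2 between the subtypes, and NFKB1 and BIRC3 between HBL-1 and K422). At rest, RELB was called between OCI-Ly3 and DB (0.61, adjusted p = 9.842e-03) in a fit of the single arrays with that block, where each control sample enters as 2 arrays. The methods' t-test with their threshold on p and size, after Benjamini-Hochberg adjustment, left the count of members at 1 in HBL-1 and 0 elsewhere, and called FOXP1 itself lower in 3 of the 4 lines. No called value changed sign. Spots not well above background limit what can be read of TNFAIP3 in K422 and DB.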
